A study of Mus musculus with 24 samples.

Results

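The Polycomb complex genes described here are Ezh2, Ezh1, Eed, Suz12, Jarid2, Mtf2, Rnf2, Ring1, Bmi1 and Cbx7, which were chosen by symbol. All 10 were found, once each, among the 24016 genes of the expression table. All 10 also passed the filter on low values (above 1 scaled read in at least 3 libraries), as did 20624 genes in all. The cells came from 16.7 Tsix +/TST, a hybrid mouse line of female embryonic stem cells, and the Tsix TST allele is present in every group. WT means the unedited parental cells, and KO means cells of that line in which the H3K9 methyltransferase gene G9a (Ehmt2) was deleted; the labels do not say how many clones were used. Day 0 cells were undifferentiated. Day 10 cells had been without LIF for 4 days in suspension and 6 days on gelatin. Total RNA, depleted of ribosomal RNA, was sequenced in 3 libraries in each of the 4 groups, and 1 H3K9ac ChIP sample was made of each group. The labels give each library a donor number of its own, but nothing says that the libraries came from separate cultures, so p-values measure the spread between these libraries, which may be technical.

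Polycomb proteins keep developmental genes silent. Polycomb repressive complex 2 (PRC2) methylates H3K27 through Ezh2 or its paralogue Ezh1, and needs the core subunits Eed and Suz12 to be active. Jarid2 and Mtf2 are accessory subunits that belong to alternative forms of PRC2 and help it to reach its targets. PRC1 ubiquitinates histone H2A through the RING proteins Rnf2 or Ring1, which pair with a PCGF protein such as Bmi1. Canonical PRC1 also holds a chromobox protein that reads the H3K27 methyl mark, and Cbx7 is the main one of embryonic stem cells. In female cells both complexes are also drawn to the inactive X chromosome.

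Expression values are whole reads per gene that the authors scaled to a common total per library ("scaled reads"), counted over the whole span of the gene, introns included. The number of reads behind them was uneven. Of the libraries, 3 were deep (21087157 to 30527844 reads, day 0 only: WT library 3 and KO libraries 2 and 3) and 9 were shallow (2081129 to 4220140 reads), and the share of reads on the ribosomal gene Rn45s was 0.12 to 0.13% in the deep class and 14.8 to 25.1% in the shallow class. Depth and day therefore move together, more so in KO, whose only shallow day 0 library is library 1. The common total includes the Rn45s reads. At an equal share of all other reads, a gene therefore has a lower scaled value in a shallow library. All day 10 libraries are shallow, and the part of this in the day changes was not tested. Day 0 library 1 of WT and of KO also held the largest summed levels of 4 Y-linked genes (201.6 and 80.9 scaled reads, against 0.0 to 19.8 in the other 10), although the line is female, and WT library 1 had the highest fibroblast marker sum of day 0 (10437.1). KO day 0 library 1 and WT day 10 library 3 had the most reads on olfactory and vomeronasal receptor genes (1022.5 and 1038.4 counts per 1e6 reads). Refits without these 3 libraries (WT day 0 library 1, KO day 0 library 1 and WT day 10 library 3), called doubted below, are given beside the main results. The deleted gene Ehmt2 was read on day 0 at 986.8 to 1375.1 scaled reads in WT, against 375.4 to 557.3 in KO. On day 10 it was read at 718.6 to 1358.9 in WT, against 499.8 to 758.4 in KO, and the overlap is due to WT day 10 library 3 (718.6), since the other 2 WT libraries were at 1296.9 and 1358.9. Which part of the gene is deleted is not stated, so these reads check the labels only in part. All 8 embryonic stem cell markers (among them Pou5f1, Nanog and Sox2) were read on both days. Their summed level at day 0 spanned 23135.0 to 41855.1 (WT) or 26585.6 to 34222.1 (KO). At day 10 it spanned 3141.6 to 6527.8 (WT) or 9096.0 to 12222.6 (KO). The summed level of 12 fibroblast markers was 1501.1 to 10437.1 (WT) or 1667.9 to 4601.6 (KO) at day 0, and 2146.1 to 7482.3 (WT) or 3514.6 to 10182.7 (KO) at day 10; 1 of the 12 was at 0 in all WT day 0 libraries and 2 in all KO day 10 libraries. The part of these cells in the results was not tested. In such bulk samples fewer cells of a type and less RNA per cell cannot be told apart.

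The sequences just upstream of 5 members are shown because the results turn on them: Eed, Suz12 and Mtf2, which varied together, and Ezh2 and Ezh1, the paralogous enzymes, whose promoters differ in listed H3K9ac peaks. Each is the 250 bases before the annotated start, 5′ to 3′ on the strand of the gene, from RefSeq (GRCm38.p6; all other positions in the text are mm9 and the builds are not to be compared). Capitals mark 2 motifs searched on both strands, the GC box (gggcgg) and the CCAAT box (ccaat).
Ezh2 (chr6:47595031-47595280, minus strand): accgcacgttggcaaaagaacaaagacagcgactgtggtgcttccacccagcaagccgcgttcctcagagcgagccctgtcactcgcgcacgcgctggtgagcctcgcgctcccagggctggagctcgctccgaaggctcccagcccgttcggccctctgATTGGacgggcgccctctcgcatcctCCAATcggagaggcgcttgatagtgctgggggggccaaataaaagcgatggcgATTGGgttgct
Ezh1 (chr11:101226464-101226713, minus strand): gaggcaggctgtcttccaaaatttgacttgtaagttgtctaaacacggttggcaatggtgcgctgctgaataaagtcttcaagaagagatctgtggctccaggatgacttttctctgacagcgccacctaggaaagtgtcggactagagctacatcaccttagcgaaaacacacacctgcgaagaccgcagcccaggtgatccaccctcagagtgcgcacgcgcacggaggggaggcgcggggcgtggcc
Eed (chr7:89980977-89981226, minus strand): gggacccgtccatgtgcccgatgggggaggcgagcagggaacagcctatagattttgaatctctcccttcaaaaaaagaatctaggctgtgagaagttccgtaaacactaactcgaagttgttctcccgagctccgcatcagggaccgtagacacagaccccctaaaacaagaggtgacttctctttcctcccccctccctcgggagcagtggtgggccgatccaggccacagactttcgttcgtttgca
Suz12 (chr11:79992856-79993105, plus strand): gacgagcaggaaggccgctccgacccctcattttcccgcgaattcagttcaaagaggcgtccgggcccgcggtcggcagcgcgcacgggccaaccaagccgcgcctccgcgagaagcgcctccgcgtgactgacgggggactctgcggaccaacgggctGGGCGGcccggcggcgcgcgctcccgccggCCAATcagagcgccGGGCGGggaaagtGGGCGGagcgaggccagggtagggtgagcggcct
Mtf2 (chr5:108065424-108065673, plus strand): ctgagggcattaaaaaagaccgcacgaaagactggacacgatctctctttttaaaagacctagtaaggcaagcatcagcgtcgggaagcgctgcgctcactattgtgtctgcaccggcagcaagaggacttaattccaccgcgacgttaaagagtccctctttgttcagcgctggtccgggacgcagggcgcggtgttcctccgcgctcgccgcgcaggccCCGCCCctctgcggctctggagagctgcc
Mtf2 has another annotated start, with 2 CpG upstream, which is not shown. The Suz12 sequence holds 37 CpG dinucleotides, at percentile 97.8 of 32851 mouse promoters of the same length, and Ezh2 and Mtf2 hold 23 each. Ezh1 and Eed have fewer, 14 and 12, and neither motif. Over all 12 annotated promoters of the 10 members the median was 22.5 CpG, against 6 over all promoters. Of the 12 member promoters 8 held a GC box and 5 a CCAAT box, and these motifs occur in 32.7 and 33.8% of all promoters. No member promoter held the ETS motif ccggaag (6.9% of all promoters) or the E2F motif ggcgggaa (1.9%); the TATA motif tataaa was found upstream of 1 start of Jarid2 (12.4% of all promoters). A match of letters is a description and not a binding site.

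Compared per kilobase of gene span, the members differed widely in level. Cbx7 had the highest mean, 88.69 ± 21.58 scaled reads per kb (SD, n = 12 libraries), followed by Mtf2 (68.03 ± 33.69) and Suz12 (64.15 ± 28.88). Then came Eed (36.46 ± 20.73), Jarid2 (32.45 ± 13.09), Ezh2 (26.10 ± 6.54) and Rnf2 (21.98 ± 8.60). Ring1 (14.61 ± 3.88), Ezh1 (13.58 ± 5.76) and Bmi1 (12.47 ± 11.64) were lowest in the mean of all libraries. That order was not the same in each group: in KO at day 0 Bmi1 (26.64 ± 15.55, n = 3) was above Ring1 (13.86 ± 4.38) and Ezh1 (10.86 ± 1.55). Most neighbours in this order lay within their spread: Cbx7 was above Mtf2 in 9 of 12 libraries, Mtf2 above Suz12 in 8, and Eed above Jarid2 in 6. The step from Suz12 to Eed held in all 12 libraries. Intronic reads enter these levels, so they are not levels of mature mRNA.

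**Figure D1:**
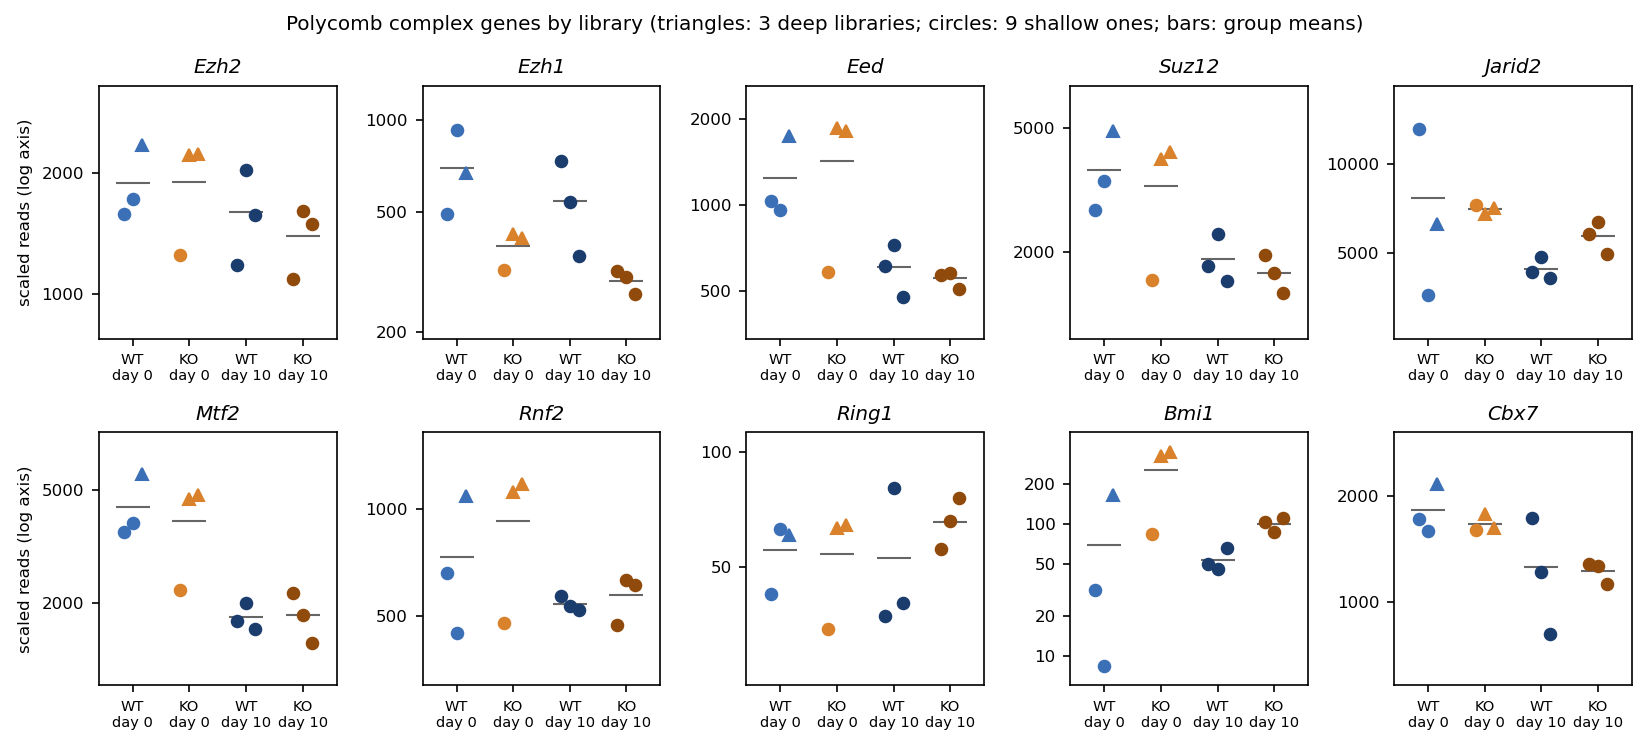
Scaled reads of each of the 10 genes by library on log axes of different ranges, in the 4 groups of 3 libraries; bars are group means. Eed, Suz12 and Mtf2 lie lower at day 10 in WT without overlap, the deep day 0 libraries (triangles) are the highest for Ezh2, Eed, Suz12, Mtf2, Rnf2 and Bmi1, and Bmi1 spans 8.4 to 354.0.

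The first question is how the Polycomb genes change as the cells differentiate. In WT, 9 of the 10 members were lower at day 10 and 1 (Bmi1) was higher, with a median log2 change of -0.48. The direction of Bmi1 there rests on the log2 scale: its mean was 69.3 scaled reads at day 0 and 53.6 at day 10, and it was at -0.33 with edgeR, -0.15 with DESeq2 and -0.47 without WT day 0 library 2. Over all 20624 genes 59.88% were lower and the median was -0.20. Only Mtf2 passed the test (limma on log2 of scaled reads plus 1, Benjamini-Hochberg adjusted p under 0.05 over all genes): 1 of 10 members, against 4.42% of all genes (2.02% higher, 2.4% lower). In KO, 9 of 10 were again lower, with Ring1 the exception, and the median was -0.52, but 75.42% of all genes were lower there and their median was -0.68. Depth moves with these directions: Ezh2, Rnf2 and Bmi1 were above 0 in KO with a term for depth (0.01, 0.07 and 0.47), and in the 9 shallow libraries alone Ezh2, Suz12, Rnf2 and Bmi1 were (0.14, 0.07, 0.25 and 0.25). No member passed in KO (0 of 10), against 8.89% of all genes (2.43% higher, 6.46% lower). Without adjustment, 3 members had a limma p under 0.05, against 32.4% of all genes. In KO edgeR called 0 members and 1065 of 14884 genes. DESeq2 called 2 members, Eed and Mtf2, and 3385 of 20575 genes. Both lines share 1 fit but no libraries. When their changes were averaged, a contrast chosen after seeing the data, 3 of 10 members fell, Mtf2, Eed and Suz12, against 16.1% of all genes (5.18% higher, 10.9% lower). With RLE scaling the median of all genes moved to -0.01 in WT and -0.41 in KO, and the share of called genes that were higher moved from 45.77 to 59.62% in WT, from 27.37 to 52.86% in KO and from 32.12 to 54.28% over both. The direction of Eed, Suz12 and Mtf2 held under each scaling, while that of Ring1 in WT turned with RLE (0.07).

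Mtf2 (chromosome 5, 108494693 to 108538238, plus strand), the accessory subunit that binds unmethylated CpG-rich DNA, had the clearest change. In WT it was read at 3558, 3837 and 5682 scaled reads at day 0 and at 1742, 1999 and 1627 at day 10. In KO the values were 2220, 4631 and 4808 at day 0 and 2170, 1826 and 1448 at day 10. The days did not overlap in either line, although the shallow KO library of day 0 was only just above the highest of day 10. In WT Mtf2 fell by 1.26 on the log2 scale (SE 0.32, limma adjusted p = 0.0394). In KO the change was -1.04 (SE 0.32, limma adjusted p = 0.0575), and the mean of both lines was -1.15 (SE 0.23, limma adjusted p = 0.00439). The WT call was lost when any 1 WT library other than day 0 library 1 was left out (adjusted p = 0.0746 to 0.166), and with TMM scaling (adjusted p = 0.0976).

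Eed (chromosome 7, 97103164 to 97129486, minus strand), which binds the methyl mark that PRC2 itself makes, was read at 1036, 960 and 1757 in WT at day 0 and at 611, 727 and 477 at day 10. In KO it was read at 585, 1872 and 1828, and at 571, 580 and 510. Again no day 10 library reached a day 0 library of its line, but KO day 0 library 1 was just above day 10 library 2. The changes were -1.01 in WT (SE 0.41, limma adjusted p = 0.211) and -1.19 in KO (SE 0.41, limma adjusted p = 0.0747). Averaged over the lines Eed fell by 1.10 (SE 0.29, limma adjusted p = 0.0201), a call lost without WT day 0 library 3, KO day 0 library 2 or 3, or KO day 10 library 3 (adjusted p = 0.0501 to 0.0571).

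Suz12 (chromosome 11, 79806608 to 79847625, plus strand), the scaffold on which PRC2 assembles, varied much like Eed. It was read at 2730, 3382 and 4875 in WT at day 0 and at 1791, 2281 and 1610 at day 10. In KO it was read at 1616, 3973 and 4197, and at 1944, 1706 and 1470. WT days did not overlap, while in KO day 0 library 1 lay inside the range of day 10. The changes were -0.92 in WT (SE 0.36, limma adjusted p = 0.191) and -0.82 in KO (SE 0.36, limma adjusted p = 0.131), and averaged over the lines Suz12 fell by 0.87 (SE 0.25, limma adjusted p = 0.0313). That call was lost with TMM (0.0606) or RLE scaling (0.0650) and in 8 of the 12 fits with 1 library left out (adjusted p up to 0.0847).

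Depth moves with these changes. With a term for depth in the fit the averaged changes were -0.83 for Mtf2 (limma adjusted p = 0.00770), -0.63 for Eed (0.0412) and -0.50 for Suz12 (0.0764). In the 9 shallow libraries alone they were -0.68 (adjusted p = 0.0817), -0.41 (0.242) and -0.31 (0.346). In those libraries the WT changes were -1.05 for Mtf2 (adjusted p = 0.0514), -0.74 for Eed (0.232) and -0.70 for Suz12 (0.247), and the KO changes, which rest on 1 day 0 library, were -0.31 for Mtf2, -0.08 for Eed and 0.07 for Suz12. Without the 3 doubted libraries (WT day 0 library 1, KO day 0 library 1 and WT day 10 library 3) the averaged changes were -1.36, -1.35 and -1.14. In that fit all KO libraries of day 0 are deep and all of day 10 shallow, so day and depth cannot be told apart in KO.

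The 3 genes varied together from library to library. Over the 12 libraries Pearson's r of their log2 values was 0.97 for Eed with Suz12, 0.95 for Eed with Mtf2 and 0.97 for Suz12 with Mtf2, where the median r of Eed with all 10473 genes of mean 100 or more was 0.40. Over the 9 shallow libraries the values were 0.93, 0.92 and 0.91, against a median of 0.13. These points share library, depth, day and scaling. The 3 genes were set apart by their fall with day, so an r above the median was in part given in advance. Over the 12 libraries their r with the other members ran from 0.17 (Mtf2 with Ring1) to 0.85 (Eed with Rnf2). Among the genes of mean 100 or more, those most like Eed over the 12 libraries were 5830418K08Rik, Ppp6r3 and Brca1 (r = 0.979 to 0.982). Those most like Suz12 were Eif2s2, Rps15a and Fbxw2 (0.970 to 0.983), and those most like Mtf2 were 5430416N02Rik, Nfatc2ip and Helb (0.976 to 0.982).

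**Figure D2:**
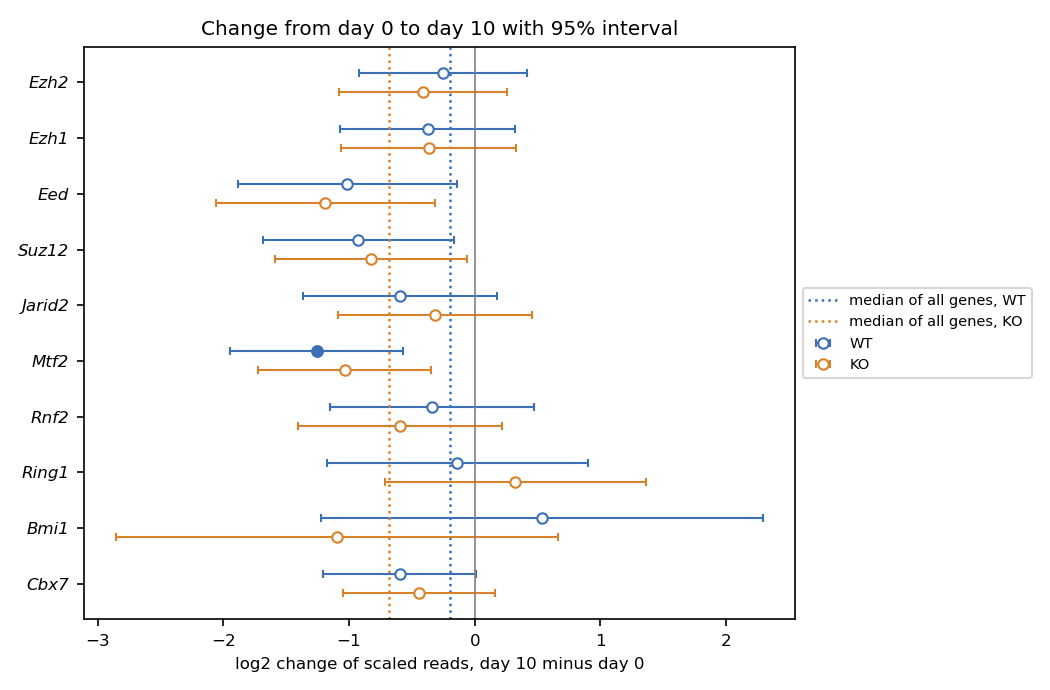
Log2 change of scaled reads from day 0 to day 10 for each gene in WT and KO, with 95% intervals; the filled point (Mtf2 in WT) passed an adjusted p of 0.05 and dotted lines are the medians of all genes (-0.20 in WT, -0.68 in KO). Eed, Suz12 and Mtf2 lie below the median of all genes in both lines, and only their intervals exclude 0 in both lines.

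No other PRC2 member passed the test of day. Ezh2 (chromosome 6, 47480273 to 47545029, minus strand), the main methyltransferase of dividing cells, was read at 1577, 1724 and 2339 in WT at day 0 and at 1183, 2026 and 1569 at day 10. In KO it was read at 1248, 2206 and 2219, and at 1087, 1607 and 1494. The days overlapped in both lines, and the changes were -0.25 (95% interval -0.92 to 0.42) in WT and -0.41 (-1.08 to 0.26) in KO. Whether Ezh2 differs in this from its partners Eed and Suz12 was not tested. The genes most like it were Dcp2, Elp3 and Itch (r = 0.953 to 0.968 over 12 libraries).

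Jarid2 (chromosome 13, 44826143 to 45017012, plus strand), an accessory subunit of the jumonji family without demethylase activity, was read at 13118, 3578 and 6241 in WT at day 0 and at 4311, 4834 and 4087 at day 10. WT day 0 library 1, a doubted library, was far above every WT library of day 10, and library 2 of the same group was below all of them. In KO Jarid2 was read at 7251, 6767 and 7073 at day 0, and at 5792, 6344 and 4930 at day 10, without overlap. The changes were -0.59 in WT (SE 0.36, limma adjusted p = 0.454) and -0.31 in KO (SE 0.36, limma adjusted p = 0.551). Without WT day 0 library 1 the WT change was -0.10 (limma adjusted p = 0.895). The genes most like Jarid2 were Zscan10, Tle4 and Usp10 (r = 0.912 to 0.915).

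Of the PRC1 members none passed the test of day. Rnf2 (chromosome 1, 153316536 to 153347953, minus strand), the main H2A ubiquitin ligase of stem cells, was read at 658, 447 and 1085 in WT at day 0 and at 568, 533 and 517 at day 10, and in KO at 476, 1117 and 1172, and at 472, 630 and 609. Its 3 high values are the 3 deep libraries, and the 9 shallow ones lie between 447 and 658. Its changes were -0.34 in WT and -0.59 in KO (95% interval -1.41 to 0.22). Ring1 (chromosome 17, 34157737 to 34161625, minus strand), its paralogue, was read at 34 to 80 scaled reads, which in the shallow libraries is 11 reads or more, and the changes were -0.14 in WT and 0.32 in KO. Cbx7 (chromosome 15, 79746237 to 79763076, minus strand) was read at 1719, 1591 and 2169 in WT at day 0 and at 1732, 1219 and 811 at day 10, and in KO at 1597, 1778 and 1626, and at 1285, 1268 and 1127. The KO days did not overlap. The changes of Cbx7 were -0.60 in WT (SE 0.28, limma adjusted p = 0.308) and -0.44 in KO (SE 0.28, limma adjusted p = 0.278), and the genes most like it were Stoml1, Chac1 and the stem cell gene Utf1 (r = 0.941 to 0.954). Those most like Rnf2 were Nif3l1, Tut1 and Jade3 (0.970 to 0.976).

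By overlap alone, 3 members in WT (Eed, Suz12, Mtf2) and 5 in KO (Ezh1, Eed, Jarid2, Mtf2, Cbx7) had day 10 libraries that were all below the day 0 ones. Of all genes 18.4% in WT and 45.5% in KO had days that do not overlap, in either direction.

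The second question is what the loss of G9a does to the Polycomb genes. No member passed between KO and WT at day 0 or at day 10 at an adjusted p of 0.05 by limma, edgeR or DESeq2, and no gene of the table did by limma (0% at day 0, 0% at day 10). Without adjustment, p was under 0.05 by limma in 2 members and 788 genes at day 0, and in 1 member and 2462 genes at day 10. edgeR also called 0 genes on both days (601 and 2088 with an unadjusted p under 0.05), while DESeq2 called 16 at day 0 and 569 at day 10. The median difference of the members was -0.04 at day 0 and 0.02 at day 10, against 0.17 and -0.26 over all genes. The test of whether the change from day 0 to day 10 differs between the lines was passed by no member (0% of all genes by limma; with an unadjusted p under 0.05, 0 members and 1795 genes; edgeR called 0 with 1557 unadjusted, and DESeq2 called 139 genes, no member among them).

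Ezh1 (chromosome 11, 101052429 to 101087764, minus strand), the methyltransferase paralogue that is more abundant in non-dividing cells, was the member with the most even difference. At day 0 the WT libraries held 492, 927 and 672 scaled reads and the KO libraries 321, 421 and 410. At day 10 the WT libraries held 732, 539 and 356, and the KO libraries 317, 304 and 267. All KO libraries were below all WT libraries of the same day. That held for Ezh1 alone among the members at day 0 (10.5% of all genes did not overlap), and at day 10 for Ezh1 and, in the other direction, Jarid2 and Bmi1 (18.1% of all genes). The differences were -0.82 at day 0 (SE 0.32, 95% interval -1.52 to -0.13, limma adjusted p = 0.993) and -0.81 at day 10 (SE 0.32, -1.51 to -0.12, limma adjusted p = 0.344). Averaged over both days, a contrast chosen after seeing the data, the difference was -0.82 (SE 0.23, limma adjusted p = 0.456), where 0.0097% of all genes passed. It was about as large with a depth term (-0.83) and in the shallow libraries alone (-0.94), where KO day 0 rests on library 1, a doubted one. Without the 3 doubted libraries it was -1.01 (limma adjusted p = 0.051). No alternative brought the adjusted p under 0.05. The table deposited by the authors gives Ezh1 a log2 ratio of -0.92 (p = 0.0601) at day 0 and -0.78 (p = 0.0461) at day 10, before any adjustment.

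Set per kilobase against Ezh2, the level of Ezh1 at day 0 was a fraction of 0.694 ± 0.253 (WT) or 0.386 ± 0.073 (KO; SD, n = 3). At day 10 the fraction was 0.679 ± 0.395 (WT) or 0.403 ± 0.115 (KO). By library the day 0 ratios were 0.571, 0.985 and 0.527 for WT, against 0.471, 0.350 and 0.338 for KO, without overlap. Those of day 10 were 1.134, 0.488 and 0.416 for WT, against 0.535, 0.347 and 0.327 for KO, and the lines overlapped. The genes most like Ezh1 over the 12 libraries were Pla2g15, Tsnax and Pim3 (r = 0.911 to 0.927). From day 0 to day 10 the log2 change of Ezh1 itself was -0.37 in both WT and KO, which did not pass (limma adjusted p = 0.638 and 0.432).

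Bmi1 (chromosome 2, 18598645 to 18608256, plus strand), the PCGF subunit known for its role in adult stem cells, had few reads and the widest range. Its day 0 values were 32, 8 and 168 scaled reads (WT) against 84, 330 and 354 (KO). Its day 10 values were 49, 45 and 66 (WT) against 103, 88 and 111 (KO). The lowest WT library held 2 reads of Bmi1 and the 3 highest of the 12 were the 3 deep ones. The differences between KO and WT were 2.53 at day 0 (SE 0.82, limma adjusted p = 0.993) and 0.91 at day 10 (SE 0.82, limma adjusted p = 0.666), where the lines did not overlap. The day 0 difference was 1.84 with edgeR, 1.68 with a depth term, 1.53 without WT day 0 library 2 and 3.62 without WT day 0 library 3. In the day comparison the log2 change was 0.53 in WT and -1.09 in KO, both of which changed sign in other fits (to -0.33 with edgeR in WT and to 0.47 with a depth term in KO). The paralogue Pcgf2 was the more abundant per kilobase in most libraries, with Bmi1 at 0.022 to 0.441 of its level in WT, 0.194 to 1.145 in KO at day 0 and 0.208 to 0.282 in KO at day 10.

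Jarid2 at day 10 was the third member whose lines did not overlap, with 4087 to 4834 scaled reads in WT and 4930 to 6344 in KO. The difference was 0.36 (95% interval -0.41 to 1.13, limma adjusted p = 0.695). For the other members the differences at day 0 ran from -0.25 (Suz12) to 0.32 (Rnf2) and at day 10 from -0.18 (Ezh2) to 0.39 (Ring1), and their intervals reached to between -1.11 and 1.43. A p that misses the threshold does not show that these members were alike in the 2 lines.

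**Figure D3:**
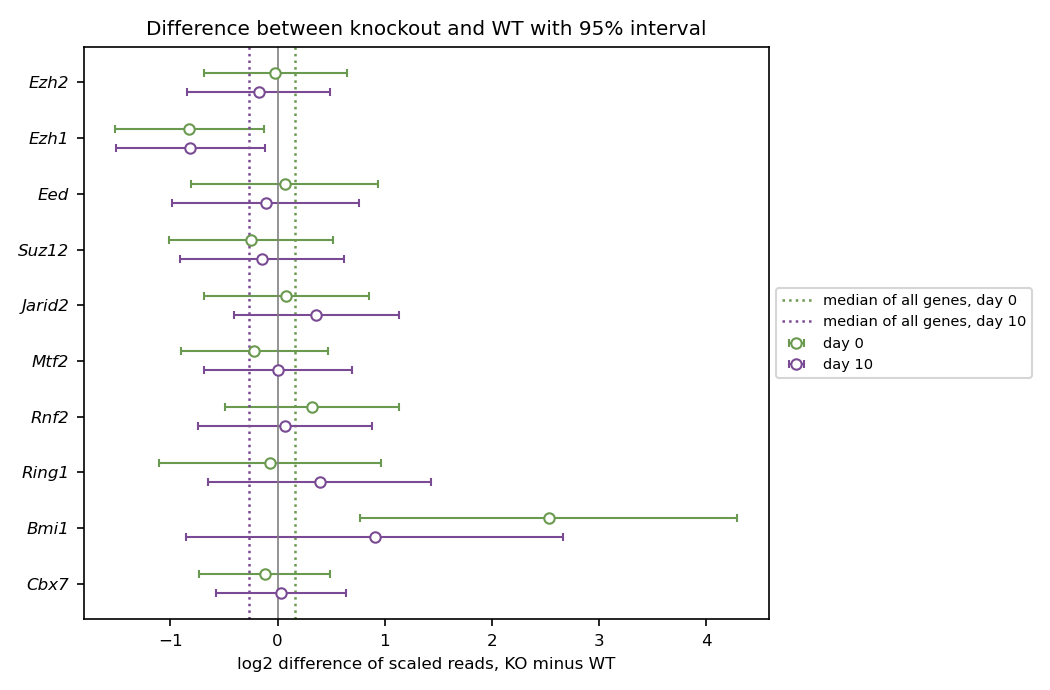
Log2 difference of scaled reads between KO and WT for each gene at day 0 and day 10, with 95% intervals; dotted lines are the medians of all genes (0.17 and -0.26). No point passed an adjusted p of 0.05; the intervals of Ezh1 lie below 0 on both days and that of Bmi1 above 0 at day 0.

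The other Polycomb genes were taken from 4 lists of subunits and opposing enzymes and 1 of target genes. Their counts stand against 4.42% of all genes that passed in WT, 8.89% in KO and 16.1% for the mean of both lines. Of 8 other PRC2 subunits, 1 fell in WT and 0 changed in KO (list medians -0.15 and -0.29); for the mean of both lines 1 fell. The gene called in WT was Epop (listed as E130012A19Rik), which links PRC2 to elongin and is another partner of the Mtf2 form. Epop was read at 4127.4, 755.7 and 2270.5 in WT at day 0 and at 623.8, 457.1 and 468.5 at day 10, a change of -1.91 (SE 0.46, limma adjusted p = 0.0314). It was -1.36 without WT day 0 library 1 (limma adjusted p = 0.0928) and -1.29 without the 3 doubted libraries (0.0537), so the call was lost. The largest WT differences that did not pass in this list were -0.87 for Phf19, -0.33 for Rbbp4 and 0.27 for Lcor. In KO Epop was read at 3904.2, 2381.8 and 2312.5, and at 2392.0, 2154.8 and 1949.7, a change of -0.37 (SE 0.46, limma adjusted p = 0.591). All KO libraries of day 10 lay above all WT ones, with a difference of 2.08 (SE 0.46) that did not pass (limma adjusted p = 0.203), nor did the difference of the 2 changes (1.54, SE 0.66, limma adjusted p = 0.563).

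Of 10 other canonical PRC1 subunits, 1 rose in WT, and 1 rose and 1 fell in KO (list medians -0.35 and -0.02), and 1 rose and 1 fell for the mean of both lines. Phc2, a polyhomeotic protein that lets PRC1 cluster, rose in both lines. It was read at 512.8, 455.1 and 364.9 in WT at day 0 and at 898.6, 978.0 and 985.9 at day 10 (1.11, SE 0.28, limma adjusted p = 0.0340), and in KO it rose by 1.50 (SE 0.28, limma adjusted p = 0.00884). Its paralogue Phc1 was at -0.87 in WT without passing (SE 0.30, limma adjusted p = 0.127), as were Pcgf2 (-0.87) and Cbx8 (1.88). Scml2 fell in KO by 1.96 (SE 0.34, limma adjusted p = 0.00622) and was at -0.45 in WT (limma adjusted p = 0.563).

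Of 20 variant PRC1 subunits, 2 rose and 1 fell in WT and 0 changed in KO (list medians -0.08 and -0.03), and 4 rose and 2 fell for the mean of both lines. Pcgf5, the PCGF paralogue of a variant complex, was read at 282.9, 396.6 and 230.8 at day 0 and at 620.7, 1000.7 and 836.4 at day 10 in WT (1.44, SE 0.31, limma adjusted p = 0.0166), and the KO change was 0.77 (SE 0.31, limma adjusted p = 0.111). Yaf2, a paralogue of Rybp, rose in WT by 1.23 (SE 0.31, limma adjusted p = 0.0367). Wdr5, which is shared with other chromatin complexes, fell in WT by 1.24 (SE 0.29, limma adjusted p = 0.0270). The largest that did not pass in WT were Auts2 (1.63), Usp7 (-0.88) and L3mbtl2 (-0.88). Of 8 genes of the PR-DUB deubiquitinase and the H3K27 demethylases, 0 changed in WT and 2 rose in KO (list medians 0.32 and 0.41), and 2 rose for the mean of both lines. The demethylase gene Kdm6b rose in KO by 3.13 (SE 0.65, limma adjusted p = 0.0154) and was at 1.44 in WT (SE 0.65, limma adjusted p = 0.279). Its KO day 0 values were 663.2 in the shallow library and 120.5 and 96.4 in the deep ones, against 1574.8 to 1885.0 at day 10. Foxk1 rose in KO by 0.98 (SE 0.27, limma adjusted p = 0.0410) and was at 0.97 in WT without passing, as was Asxl3 (0.97).

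Of 22 developmental genes known as Polycomb targets in stem cells, 2 rose and 1 fell in WT and 3 rose in KO (list medians 0.52 and 0.43, against -0.20 and -0.68 over all genes). For the mean of both lines 6 rose and 2 fell. The mesoderm gene T (brachyury) was read at 3.5 to 25.0 scaled reads at day 0 in both lines and at 323.1 to 559.3 at day 10, and rose by 5.42 in WT (SE 0.59, limma adjusted p = 0.000167) and 5.51 in KO (SE 0.59, limma adjusted p = 0.000202). Cdx2, a gene of trophectoderm and posterior mesoderm, rose from 0.0 to 1.1 in WT and 1.3 to 21.8 in KO to 92.6 to 463.8 in both. Gata4, of the endoderm and heart, rose in KO (1.94, SE 0.52, limma adjusted p = 0.0379) and Tbx3 fell in WT (-1.44, SE 0.36, limma adjusted p = 0.0332). In WT Gata6 (2.25), Isl1 (1.99) and Foxa2 (1.66) did not pass. No gene of these 5 lists passed between KO and WT on either day. Of the 15 changes called in WT or KO over the 5 lists, 5 (T and Cdx2 in both lines, Scml2 in KO) held in each fit with 1 library left out. In the 9 shallow libraries alone 3 held, T in both lines and Cdx2 in WT. Without the 3 doubted libraries 14 held, with Epop the exception, but in that fit day and depth cannot be told apart in KO.

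The hybrid line allows a further readout, the share of reads from each parental allele, named mus and cas in the authors' allele table. Parts of the genome of this line are hybrid and parts are not: a gene was counted as hybrid where its neighbours within 5 Mb gave 40 to 60% cas reads, as did those of 6125 of 22882 autosomal genes. Eed, Mtf2, Jarid2, Ezh1 and Bmi1 lie in such regions (neighbours 47.2 to 52.3% cas). Ezh2, Suz12, Rnf2, Ring1 and Cbx7 do not (neighbours 2.3 to 4.9% cas), so their reads say nothing of allelic balance. Allele counts were tested with edgeR's quasi-likelihood test, with a term for each library, over 7079 genes and, as an alternative chosen after seeing the data, over 1790 genes in hybrid regions.

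Eed was read more from the cas allele in 12 of 12 libraries, with 51.8 to 56.2% cas reads at day 0 in WT and 52.3 to 53.1% in KO. Its neighbours gave 52.3% cas, so its day 0 shares lay near that of the region. The test below is against equal reads of both alleles and not against the neighbours, and it weighs the 4 groups alike. The log2 ratio of mus to cas was -0.44 over the 4 groups (edgeR adjusted p = 0.00413; -0.43 and 0.000639 over hybrid regions). Of all genes, those outside hybrid regions included, 79.8% passed this test, and 30.5% passed over hybrid regions, so a call is common. At day 10 in WT the cas share of Eed was 62.5% (Wilson 95% interval 52.1 to 71.9), 65.1% (57.0 to 72.3) and 72.3% (58.2 to 83.1), above all libraries of day 0. At day 10 in KO it was 54.8, 52.1 and 64.9%. The change of its allele ratio did not pass in WT (-0.76, edgeR adjusted p = 0.613; over hybrid regions -0.74, 0.297) or in KO (-0.28, edgeR adjusted p = 0.837), where 0.509 and 0.0848% of all genes passed and 0.615 and 1.23% over hybrid regions. The allelic reads of Eed number 42 to 146 in each day 10 library, and intervals cover counting error only.

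Mtf2 leaned the other way, with more mus than cas reads in 10 of 12 libraries and 37.9 to 52.2% cas, where its neighbours gave 47.2%. The log2 ratio was 0.29 (edgeR adjusted p = 0.0214; 0.30 and 0.00194 over hybrid regions). The call over all genes was lost without KO day 0 library 2 (edgeR adjusted p = 0.0513) or WT day 10 library 2 (0.0619). In the deep libraries, with 2722 to 4457 allelic reads each, the cas share was 43.7, 42.4 and 42.9%, and the Wilson 95% intervals ended at 45.1, 44.1 and 44.8%. Jarid2 showed no difference past the test (-0.06, edgeR adjusted p = 0.634), with 46.4 to 56.3% cas. Its deep libraries gave 56.3% (Wilson 95% interval 54.7 to 57.9), 54.1% (52.4 to 55.8) and 53.8% (52.0 to 55.6). The shallow libraries of Jarid2 ran from 46.4 to 54.5%. Ezh1 had 13 to 517 allelic reads, a cas share of 30.8 to 65.5% and a ratio of 0.22 (edgeR adjusted p = 0.322). Bmi1 had 2 to 279 allelic reads and was not tested. For the allele ratio between KO and WT no member passed, and no gene did (edgeR, 0% of all genes and 0% over hybrid regions at either day; at an unadjusted p under 0.05, 203 genes at day 0 and 302 at day 10, and 27 and 112 over hybrid regions).

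Suz12 lies in a region where neighbours gave 3.5% cas reads, yet its deep libraries gave 15.3% (Wilson 95% interval 14.0 to 16.7), 14.1% (12.6 to 15.7) and 20.3% (18.5 to 22.3). Its 9 shallow libraries gave 0.7 to 6.6%. The 3 high values are the 3 deep libraries, and the part of depth in this was not tested.

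**Figure D4:**
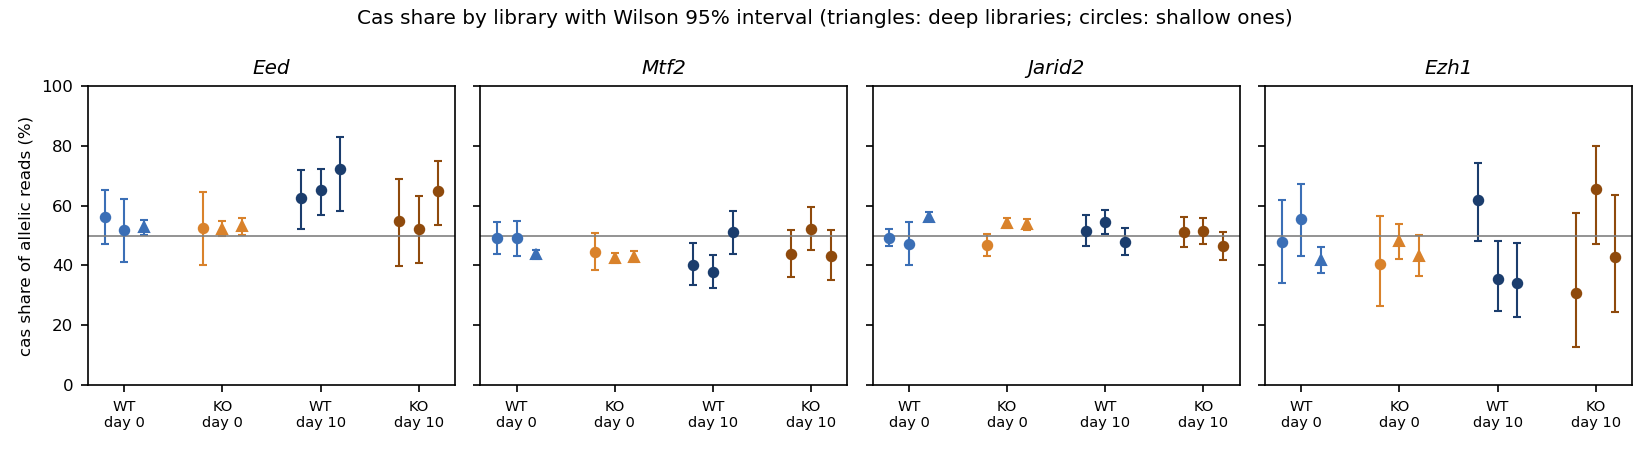
Share of cas reads among allelic reads of the 4 tested genes in hybrid regions, by library in the 4 groups, with Wilson 95% intervals; the line marks 50%. Eed is above 50% in every library and highest at day 10 in WT (62.5 to 72.3%), and Mtf2 is below 50% in 10 of 12. The neighbours of Eed gave 52.3% cas and those of Mtf2 47.2%.

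H3K9ac, a mark of active promoters, was read from the authors' peak lists as the strongest peak within 1 kb of the start of a gene. With 1 sample per group there is no replicate check, and the fold enrichments are the authors' values, which depend on the depth of each sample. A promoter peak was listed for 9 of 10 members in WT and 9 in KO at day 0, for 10 in WT at day 10 and for 9 in KO at day 10. In the same order, 11946, 9602, 12206 and 12521 of all 24016 genes had one, and of the 10473 genes with a mean of 100 or more scaled reads 80.4, 72.3, 87.0 and 87.8%. The one gene without a peak was each time Ezh1, whose only peak, in WT at day 10, was 3.09-fold over background with a −log10 q of 1.0. The lists hold weak peaks: at day 0 those of Ring1 and Bmi1 had a −log10 q of 0.8 in WT and 0.5 in KO. The presence of so weak a peak is therefore not read as a difference between groups or genes.

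The strongest promoters at day 10 were those of Eed (6.67-fold in WT and 7.22-fold in KO), Rnf2 (5.65 and 6.35), Suz12 (5.61 and 5.08), Mtf2 (5.60 and 5.70), Ring1 (5.36 and 5.27) and Ezh2 (5.29 and 5.79). The median over all promoters with a peak was 3.89 in WT and 3.80 in KO. At day 0 the same 6 genes were at 3.13- to 4.01-fold in WT and 2.85- to 4.38-fold in KO, and the medians were 2.86 and 3.10. The listed folds of all promoters were higher at day 10 in the median, so the days are not compared by them. Bmi1 (3.22- and 4.07-fold) and Cbx7 (3.45- and 3.44-fold) had the weakest peaks at day 10 after Ezh1, although Cbx7 had the highest level of RNA per kilobase of the members. Only peaks with a −log10 q of at least 5 would leave 0 members at day 0 in both lines, 4 in WT and 5 in KO at day 10. The share of all genes at that threshold was not counted, so these counts are not compared between days.

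**Figure D5:**
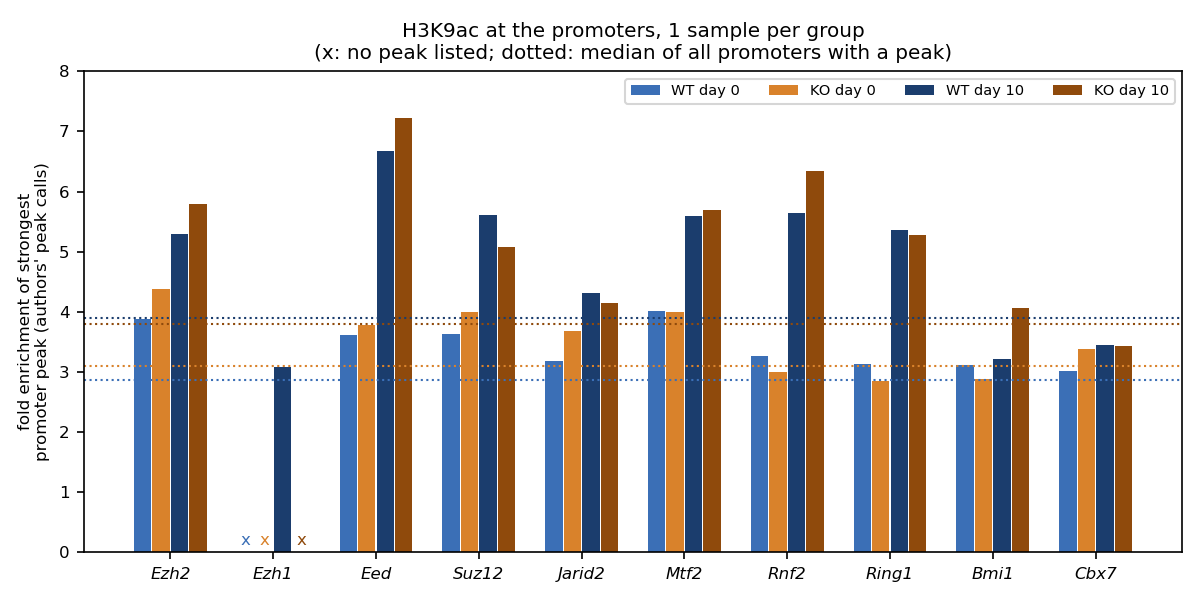
Fold enrichment of the strongest H3K9ac peak within 1 kb of each gene's start in the 4 groups (bars, 1 sample each, from 0), as the authors' peak calls give it; dotted lines are the medians of all promoters with a peak (2.86 to 3.89). Ezh1 has a listed peak only in WT at day 10, a weak one (−log10 q of 1.0), and Eed has the tallest peaks (6.67 and 7.22).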

How the data were processed

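RNA of 12 libraries (3 in each of 4 groups) and H3K9ac ChIP of 4 samples were used; the H3K9me2 and input samples were not analysed here. Per the submitters' processing notes, which give no versions, the tools named are TopHat, HOMER, Novoalign and MACS2, and the build is mm9. The strand setting, the assignment of reads to alleles and the ChIP control are not given in the sources used here.

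The gene table holds a signal, reads scaled to a common total by the authors, per the file headers, and the authors' deposited log2 ratios and p-values of their comparisons. In the deposited signal 99.997% of values were whole reads within 0.01 scaled reads of what 1 read is worth, so whole reads were recovered. Its gene length equals the genomic span in 99.48% of genes. The deposited allele table holds counts of mus and cas reads. The deposited peak lists hold a fold enrichment (a ratio) and the −log10 of p and q as the authors' peak caller wrote them.

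The main test was limma 3.58.1 (R 4.3.3; trend, robust) on log2(value + 1) of genes above 1 in at least 3 libraries, with all 12 libraries in 1 fit, and Benjamini-Hochberg adjustment over all genes at 0.05; a fold on this scale understates the change of low genes. Allele counts were tested with edgeR 4.0.16 where every library held 10 or more allelic reads of a gene. The fits were tested on simulated data. Alternatives were edgeR and DESeq2 1.42.0 on recovered reads, TMM and RLE scaling, other pseudocounts and filters, a replicate block, a depth term, and libraries left out. The averaged contrasts, the shallow libraries alone and the hybrid regions alone were added after seeing the data. The members and lists were chosen with earlier results of these data known. Named list genes are those past 0.05 in any of the 5 planned RNA comparisons and up to 3 more with the largest WT change, and the 3 most similar genes of each member were taken by Pearson's r; those of Ring1 and Bmi1 are not reported here. No column of per-sample values was left unmapped (0).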

Additional observations from a re-analysis of the deposited data

How the results depend on the processing

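Of 619 refits of 35 values of single members, 564 kept direction and side of the threshold, 29 lost the call, 11 gained one and 15 changed sign; of 345 refits of 23 counts, 252 stayed within 1.5 times. Where no value bears on it, the cause was not tested. All day 10 libraries are shallow, so day and depth are in part confounded. In fits without KO day 0 library 1, those without the doubted libraries included, they are fully confounded in KO.

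For day 10 against day 0 in WT the count of all genes (911) was 1871 with DESeq2, 396 with the compared groups alone, 1514 with a depth term, 3017 without the 3 doubted libraries, 561 in the shallow libraries and 466 to 1047 with 1 library left out. The members called (1) were 0 with TMM scaling, the compared groups or the shallow libraries, 3 without the doubted libraries and 0 to 1 with 1 library left out. Ring1 (-0.14) changed sign with RLE scaling (0.068), edgeR (0.021) and DESeq2 (0.18), and Bmi1 (0.53) with edgeR (-0.33) and DESeq2 (-0.15). With 1 library left out Ring1 ran from -0.48 to 0.063 and Bmi1 from -0.47 to 1.62.

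In KO the count of all genes (1834) was 1054 with a pseudocount of 5, 1065 with edgeR, 3385 with DESeq2, 4105 with the compared groups, 3012 with a depth term, 7265 without the doubted libraries and 124 in the shallow ones, and 199 to 2864 with 1 library left out (2864 without day 0 library 1). The members called (0) were 2 with DESeq2 and 4 without the doubted libraries, and 0 to 3 with 1 library left out. With a depth term Ezh2 was 0.013, Rnf2 0.072 and Bmi1 0.47; in the shallow libraries Ezh2 was 0.14, Suz12 0.069, Rnf2 0.25 and Bmi1 0.25.

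Between KO and WT all genes called (0) were 16 with DESeq2 at day 0. At day 10 they were 111 with a pseudocount of 0.1, 569 with DESeq2, 4 with the compared groups and 41 with a depth term. For the difference of the day changes DESeq2 called 139. For the mean of both lines the count of all genes (3325) was 9198 without the doubted libraries, 1006 in the shallow ones and 1859 to 6421 with 1 left out, and the members called (3) were 5, 0 and 1 to 4. For the mean of both days the count (2) was 0 without a filter, with edgeR or in the shallow libraries, 102 with DESeq2, 4 with a depth term, 51 without the doubted libraries and 0 to 6 with 1 left out.

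Allele calls over all genes (5650) were 546 over hybrid regions. For the change in WT (36) they were 11 over hybrid regions and 9 to 57 with 1 library left out. In KO (6) they were 11 with a minimum of 5 allelic reads, 22 over hybrid regions and 1 to 20 with 1 left out. Between KO and WT at day 0 they were 0 to 13 with 1 left out. With peaks of −log10 q of at least 5, members with a promoter peak were 0 (WT) and 0 (KO) for day 0, then 4 (WT) and 5 (KO) for day 10. The share of all genes at that threshold was not counted, so the days are not compared by it.

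The same-number correlations of deviations ran from -0.578 to 0.579, and the different-number ones from -0.625 to 0.632. WT day 0 library 3 and KO day 0 library 2, both deep, gave 0.597. Depth enters these values, so they cannot show whether the replicate numbers pair the libraries. With a replicate block the members called in WT were 0 (Mtf2 adjusted p = 0.0526) and the genes called for the mean of both days were 0.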
